A study of Mus musculus with 12 samples.

Results

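Lungs taken 21 days after bleomycin from mice that had been given intravenous polymer nanoparticles were compared with lungs taken at day 14, before any treatment. The comparison used 8 of the 12 RNA sequencing libraries of the study, chosen by their labels, with 4 mice in each group, and covered all genes of the deposited expected count table. The animals were 10-week-old C57BL/6J male mice, wild-type per the labels, and every one, the day 14 controls included, had been given 0.0125 U of bleomycin through the oropharynx. The day 14 mice had no further treatment. The day 21 mice of this comparison were injected behind the eye, once a day from day 14 to day 18, with 2 mg of nanoparticles in phosphate-buffered saline (5 doses). Each particle was made of poly(lactide-co-glycolide), with poly(ethylene-alt-maleic anhydride) on its surface as the surfactant, and the mean diameter was 609.22 nm. The remaining 4 libraries came from mice given the vehicle alone and taken at day 21. They give the same genes' values without nanoparticles, are tested against the nanoparticle lungs, and enter the estimate of spread behind every p-value, since all 12 libraries were fitted together. With the 8 libraries of the 2 groups alone, fewer genes passed (1672 in place of 2636). Time and nanoparticles both differ between the day 14 and the nanoparticle lungs and cannot be told apart in that comparison. Lungs without bleomycin were not analysed here.

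Bleomycin is a chemotherapy drug that breaks DNA and injures the alveolar lining. In mice the injury is followed by inflammation, by division of fibroblasts, epithelial cells and macrophages, and by a collagen-rich scar, which in young animals is partly cleared later. Surviving alveolar type 2 cells pass through a transitional state high in keratin 8 on the way to flat type 1 cells, and macrophages that arise from blood monocytes gather around the scar. Particles of this polymer injected into blood are taken up mainly by circulating monocytes and neutrophils and by phagocytes of the spleen and liver.

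Total expected counts per library were 25706260 to 42714693 at day 14, 24138582 to 28910459 in the nanoparticle group and 28001006 to 36208498 in the vehicle group, and 3 counts were worth 0.0719 to 0.125 CPM, the library-size-scaled count used for all levels here. Lung markers were high in all 8 libraries: Sftpc, the surfactant protein of alveolar type 2 cells, stood at 10538.9 to 12771.8 CPM at day 14 and 12218.1 to 12612.8 CPM after nanoparticles. Nanoparticle replicate 3 stood apart. On the second principal component, which held 14.3% of the variance, it lay at 49.3, whereas the other 11 libraries lay between -12.2 and 5.31. S100a8, a calcium-binding protein of neutrophils, was at 322 CPM in that library and at 18.0 to 19.9 CPM in the other nanoparticle libraries. The same library was the lowest of its group for many division genes. Nanoparticle replicate 2 was high in red cell genes, with Hbb-bs, a beta-globin, at 1423.9 CPM beside 86.3 to 261 CPM in the rest of its group. Day 14 replicate 2 was high in immediate early genes, with Fos at 187 CPM beside 22.7 to 73.7 CPM. The labels do not say whether mice of 1 group shared a cage or litter, so the p-values measure the spread between these mice.

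Of 17909 genes tested with edgeR's quasi-likelihood test, 2636 (14.7%) passed a Benjamini-Hochberg adjusted p of 0.05, and these are the genes called changed below. After nanoparticles 1103 genes (6.16%) were higher and 1533 (8.56%) were lower than at day 14. The changes were mostly small. The median log2 fold change was 0.39 among the genes that rose and -0.39 among those that fell, and only 86 of the first and 225 of the second changed by 2-fold or more. All 4 nanoparticle libraries lay above all 4 day 14 libraries for 1517 genes (8.47%) and below them for 1891 (10.6%), and 2225 of the called genes were separated in this way. The count was not stable to the choice of mice: it was 1363 without day 14 replicate 3, 1384 without nanoparticle replicate 4, 1570 without day 14 replicate 1, 1625 without nanoparticle replicate 2 and 2934 without nanoparticle replicate 3. A set of 1126 genes was called in each of the 12 fits that left out 1 library. A range of counts given after a list's count is its range over these 12 fits. Of the genes named here 41 lost their call in at least 1 of the alternative fits, most often without day 14 replicate 1 or 3 or nanoparticle replicate 2 or 4 (28 to 32 genes each).

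**Figure D1:**
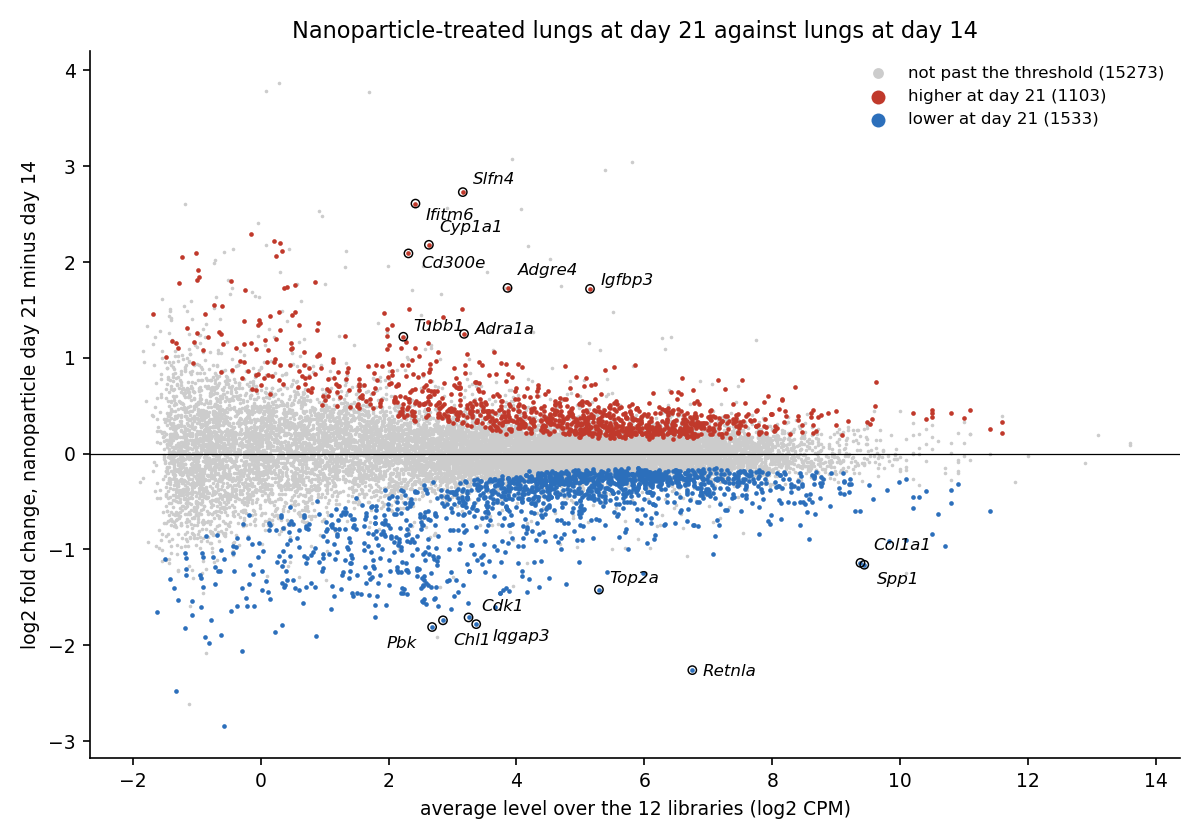
Each point is 1 of 17909 genes, with its average level over the 12 libraries (log2 CPM) on the horizontal axis and its log2 fold change, nanoparticle day 21 minus day 14, on the vertical axis. Red points are the 1103 genes that rose and blue points the 1533 that fell, and Retnla, at -2.26, is the lowest labelled gene.

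The genes that fell together most completely were those of cell division. All 29 mitosis genes on the list fell, with log2 fold changes from -1.71 (Cdk1) to -1.03 (Bub1b) and a median of -1.39, where the median over all genes tested was 0.0062. All 29 passed the threshold in each fit that left out 1 library. Of the 34 DNA replication genes, 31 fell and none rose (median -0.78, 28 to 32 falling with 1 library left out). Among the 12 largest falls of genes with an average log2 CPM of at least 1 and groups that did not overlap, Cdk1, Tpx2 and Ube2c are on these lists, and Pbk, Iqgap3, Pimreg, Ckap2 and Kif18b, which are not, are known as genes of dividing cells.

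Cdk1 (chr10:69335146-69352938, GRCm38) encodes the kinase that drives entry into mitosis. Its level was 18.6, 17.6, 16.2 and 14.4 CPM in the day 14 libraries and 6.68, 5.69, 3.16 and 4.89 CPM after nanoparticles. The groups did not overlap, and the log2 fold change was -1.71 ± 0.22 (SE, n = 4 and 4, edgeR adjusted p = 0.000875). Gtse1 (chr15:85859745-85876573), a regulator of microtubules in dividing cells, gave the smallest adjusted p of all genes, 0.000214. It stood at 6.87, 7.43, 9.09 and 7.42 CPM at day 14 and at 3.00, 2.74, 2.85 and 3.04 CPM after nanoparticles, a log2 fold change of -1.4 ± 0.12. Mki67, which encodes the proliferation antigen Ki-67, was at 100, 102, 101 and 101 CPM at day 14. After nanoparticles it was at 49.5, 51.7, 22.2 and 46.0 CPM, so that replicate 3 was the lowest library, and the fall was -1.25 with it and -1.03 without it. Iqgap3 (chr3:88081971-88121048), a scaffold protein of proliferating cells, fell from a mean of 18.4 to 5.36 CPM (log2 fold change -1.78), and Pbk (chr14:65805837-65817822), a mitotic kinase, from 11.3 to 3.24 CPM (-1.81).

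Genes of S phase fell less steeply. Mcm5, a subunit of the replicative helicase, was at 31.6 to 38.3 CPM at day 14 and at 10.6 to 18.0 CPM after nanoparticles (log2 fold change -1.3 ± 0.13, edgeR adjusted p = 0.000375). Pcna, the sliding clamp of DNA polymerases, fell from a mean of 102 ± 5.41 (SD, n = 4) to 71.7 ± 4.54 CPM, a log2 fold change of -0.51. Rrm2, which makes deoxynucleotides, fell by 1.42 on the log2 scale. H2ax, a histone variant that marks DNA breaks and is transcribed with replication, fell by 0.79, from 24.3 ± 1.79 to 14.1 ± 1.21 CPM. In vehicle lungs at day 21 the median log2 fold change from day 14 was -1.21 for the mitosis genes and -0.71 for the replication genes. For Cdk1 the nanoparticle minus vehicle difference was -0.32, with a 95% confidence interval from -0.81 to 0.17 (edgeR adjusted p = 0.999).

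Many mitotic genes are switched on late in the cell cycle through a short promoter element with the letters TTTGAA and nearby CCAAT boxes, whereas S phase genes often carry sites for E2F factors such as GCGGGAA. RefSeq promoters of GRCm38.p6, 300 bases from 250 before to 50 after the gene start, were searched for these letters on both strands. TTTGAA was present in 19 of 25 mitosis promoters (76%) and in 4 of 28 replication promoters (14.3%), beside 18.1% of the promoters of 27025 genes. CCAAT was present in 19 of 25 (76%) and 17 of 28 (60.7%), beside 37.9%. GCGGGAA was in 0 of 25 mitosis promoters and in 13 of 28 replication promoters (46.4%), beside 4.66%. A match shows that the letters are there and not that a factor binds them. Of the 12 genes with the largest falls 7 had a promoter in the table and 5 of these held at least 1 of the letters. Each sequence below reads 5′ to 3′ on the gene's strand, with matches on either strand in capitals (TTTGAA and also CCAAT, or the reverse complement of either). Shown are the promoters of the 4 of these 5 genes with the largest falls. They are Iqgap3 (chr3:88081801-88082100, plus strand), Cdk1 (chr10:69352863-69353162, minus strand), Ckap2 (chr8:22185770-22186069, minus strand) and Ube2c (chr2:164769679-164769978, plus strand).
Iqgap3: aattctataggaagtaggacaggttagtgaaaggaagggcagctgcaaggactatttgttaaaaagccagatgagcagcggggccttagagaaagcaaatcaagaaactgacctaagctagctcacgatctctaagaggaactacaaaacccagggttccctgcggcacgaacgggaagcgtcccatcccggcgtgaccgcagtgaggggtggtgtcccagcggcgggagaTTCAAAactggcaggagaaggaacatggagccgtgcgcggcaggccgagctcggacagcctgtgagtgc
Cdk1: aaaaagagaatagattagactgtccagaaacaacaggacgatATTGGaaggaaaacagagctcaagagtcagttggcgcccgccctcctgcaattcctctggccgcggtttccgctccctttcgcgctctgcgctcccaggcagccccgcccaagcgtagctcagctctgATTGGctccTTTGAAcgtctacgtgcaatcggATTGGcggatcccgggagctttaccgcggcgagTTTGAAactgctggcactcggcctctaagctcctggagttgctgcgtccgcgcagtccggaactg
Ckap2: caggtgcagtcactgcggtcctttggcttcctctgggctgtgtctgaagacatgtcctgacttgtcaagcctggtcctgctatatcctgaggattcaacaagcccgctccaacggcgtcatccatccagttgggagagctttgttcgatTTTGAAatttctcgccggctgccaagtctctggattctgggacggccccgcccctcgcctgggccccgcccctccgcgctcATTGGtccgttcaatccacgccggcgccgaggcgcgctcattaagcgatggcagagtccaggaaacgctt
Ube2c: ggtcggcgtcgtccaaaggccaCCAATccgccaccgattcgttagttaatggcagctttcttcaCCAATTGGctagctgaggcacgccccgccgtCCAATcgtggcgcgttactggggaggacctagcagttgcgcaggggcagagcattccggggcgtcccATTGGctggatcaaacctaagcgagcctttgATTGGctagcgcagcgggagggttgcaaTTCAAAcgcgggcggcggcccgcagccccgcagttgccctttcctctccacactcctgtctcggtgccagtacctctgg
Iqgap3 held 1 TTTGAA and no CCAAT, Cdk1 held 2 and 3, Ckap2 held 1 and 1, and Ube2c held 1 and 6. In Ube2c a pair of CCAAT matches on opposite strands share 2 bases. Ckap2, a spindle protein, fell from 13.3, 14.3, 13.5 and 13.5 CPM to 5.54, 5.32, 1.72 and 5.15 CPM. Ube2c, the ubiquitin-conjugating enzyme of the anaphase-promoting complex, fell from 11.9 ± 1.20 to 3.93 ± 1.15 CPM (SD, n = 4). Both were lowest in replicate 3, and both stayed past the threshold without it (adjusted p = 0.00101 for Ckap2 and 0.000423 for Ube2c).

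The scar matrix fell next. Of 15 fibrillar and other scar collagen chains, 13 fell and none rose, with a median log2 fold change of -0.69 (12 to 13 with 1 library left out). Of 23 enzymes and chaperones that fold, process and cross-link collagen, 16 fell and none rose (median -0.36, 10 to 16). Of 28 matrix glycoproteins and proteoglycans, 17 fell and 1, Prelp, rose (median -0.51, 12 to 18 falling and 0 to 1 rising with 1 library left out). In a whole lung homogenate, fewer cells of a type and less RNA per cell cannot be told apart.

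Col1a1, a chain of type I collagen, the main fibre of scar, was at 920, 1172.7, 1111.3 and 844 CPM at day 14. After nanoparticles it was at 500, 499, 466 and 367 CPM, so each nanoparticle library lay well below each day 14 library (log2 fold change -1.14 ± 0.15, edgeR adjusted p = 0.000758). Col1a2, its partner chain, fell by 0.91 and Col3a1, of type III collagen, by 0.84. Fn1, fibronectin, an early scaffold of scar that is also on the classical monocyte list, fell from 2351.4, 2085.7, 2891.0 and 2188.4 CPM to 1286.4, 1210.7, 1497.0 and 892 CPM (-0.96 ± 0.17). Tnc, tenascin C, a glycoprotein of wounds, fell from 200 ± 33.0 to 96.8 ± 19.1 CPM (-1.05). Sparc, a collagen-binding protein secreted by fibroblasts, fell by 0.60 and Mfap4, of elastic fibres, also by 0.60. Among the enzymes, Loxl2, which cross-links collagen, fell by 0.72, P3h1, a prolyl 3-hydroxylase, by 0.54 and Serpinh1, the collagen chaperone HSP47, by 0.47. Postn, periostin, a matrix protein of scar fibroblasts, was not called. It was at 459 to 548 CPM at day 14 and at 395 to 527 CPM after nanoparticles (-0.11, adjusted p = 0.427).

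Proteases and their inhibitors were divided. Of 24 measured, 10 fell (6 to 11 with 1 library left out) and 1 rose, Adam19 (0 to 1). Timp1, an inhibitor of metalloproteinases that is induced in injured tissue, was at 24, 36.7, 35.4 and 20.6 CPM at day 14 and at 12.3, 10.7, 16.2 and 8.73 CPM after nanoparticles (log2 fold change -1.28 ± 0.22). Adam12, a protease of activated fibroblasts, fell by 0.95. Mmp12, the elastase of macrophages, stood at 112, 90.8, 128 and 111 CPM at day 14 and at 137, 125, 121 and 111 CPM after nanoparticles, with overlapping groups (0.16 ± 0.14, adjusted p = 0.469). In the TGF-beta list 6 of 26 genes fell (2 to 6) and 1, Tgfbr3, rose (0 to 2). Inhba, which encodes the activin A subunit, fell from 10.2 ± 2.19 to 4.29 ± 1.4 CPM (-1.25 ± 0.21), and Ltbp3, which holds latent TGF-beta, fell by 0.35. The ligand Tgfb1 itself was at 93.9 ± 5.46 and 86.8 ± 5.69 CPM (-0.11, adjusted p = 0.205).

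Genes of the scar fibroblast fell in part. Of 20 scar fibroblast genes 10 fell and none rose (7 to 11 with 1 library left out). Cthrc1, a secreted marker of the fibroblasts that make most collagen, was at 9.17, 10.1, 9.76 and 7.79 CPM at day 14 and at 4.58, 4.53, 6.52 and 4.67 CPM after nanoparticles (log2 fold change -0.86 ± 0.20, edgeR adjusted p = 0.0149). Acta2, smooth muscle actin, also made by vessel and airway muscle, was at 137 ± 32.5 and 117 ± 8.21 CPM (-0.22, adjusted p = 0.266). Genes of resting alveolar fibroblasts, the cells that store lipid beside type 2 cells, gave more rises than falls: 4 of 17 rose (Inmt, Itga8, Limch1 and Macf1, 2 to 7) and 1 fell (Mfap4), and 7 rose without nanoparticle replicate 3. Inmt, a methyltransferase of these cells, rose from 563, 550, 474 and 590 CPM to 814, 840, 975 and 1022.1 CPM (0.75 ± 0.14), and Itga8, an integrin chain of the same cells, from 215 ± 37.6 to 320 ± 45.8 CPM (0.57). Npnt, the integrin's matrix ligand, was at 836 ± 93.2 and 952 ± 161 CPM (0.19, adjusted p = 0.305).

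Epithelial genes of the transitional state fell. Of 19 on the list, 12 fell and 1, Tm4sf1, rose (median -0.51, 9 to 14 falling with 1 library left out). Krt8, the keratin that names this state, was at 272, 297, 298 and 256 CPM at day 14 and at 191, 185, 218 and 166 CPM after nanoparticles (log2 fold change -0.56 ± 0.09, edgeR adjusted p = 0.00238). Krt7 fell from 483 ± 36.1 to 339 ± 15 CPM, Clu, the chaperone clusterin, from 468 ± 38.8 to 281 ± 34.0 CPM and Sfn, an epithelial p53 target, from 38.9 ± 5.16 to 19.5 ± 5.64 CPM. No library of 1 group entered the range of the other for any of these 4 genes. Genes of the mature epithelium were called in both directions. Of 22 type 2 cell genes 2 rose (Sftpa1 and Slc34a2, 1 to 6) and 1 fell (Muc1, 0 to 1), shares of 9.09% and 4.55%. Of 20 type 1 cell genes 3 rose (Cav2, Akap5 and Vegfa, 2 to 4) and 3 fell (Pdpn, Aqp5 and Igfbp2, 1 to 4), 15% in each direction beside 6.16% and 8.56% over all genes. Slc34a2, the phosphate transporter of type 2 cells, rose by 0.37, and Ager, the receptor RAGE of type 1 cells, was at 1816.6 ± 113 and 1631.7 ± 64.6 CPM (-0.15, adjusted p = 0.116). Of 19 club and secretory airway genes 1, Cyp2f2, rose and 4 fell (4 to 6), Reg3g, Muc5ac, Muc5b and Bpifb1. Cyp2f2, the club cell cytochrome, rose by 0.42, from 1186.5 ± 55.1 to 1589.5 ± 179 CPM, and Muc5b, a mucin, fell from 96.1 ± 19.8 to 53.3 ± 8.81 CPM (-0.85).

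p53 targets and senescence genes fell in 15 of 28 cases and rose in none (median -0.33, 12 to 15 falling with 1 library left out). Cdkn1a, which encodes the cell cycle inhibitor p21 and is on the transitional epithelium list too, was at 224, 176, 231 and 192 CPM at day 14 and at 139, 128, 169 and 110 CPM after nanoparticles (log2 fold change -0.59 ± 0.13). Zmat3 fell by 0.53 and Phlda3 by 0.43, both direct p53 targets. Mdm2, the p53 target that degrades p53, was at 82.3 ± 3.71 and 82.2 ± 5.19 CPM (-0.0028, adjusted p = 0.983). Etv4, a transcription factor downstream of ERK signalling (chr11:101769742-101785371), was among the 12 largest falls, from 3.23, 4.49, 4.02 and 3.19 CPM to 0.930, 1.08, 1.91 and 0.942 CPM (-1.62 ± 0.27). Chl1, a neural cell adhesion molecule (chr6:103510586-103750211), fell from 13.6 ± 3.65 to 4.09 ± 2.79 CPM (-1.74). Ereg, epiregulin, a ligand of the EGF receptor (chr5:91074622-91093646), fell by 1.58 with an adjusted p of 0.0382. That call was lost without day 14 replicate 1, 2 or 3, nanoparticle replicate 2 or 4, or vehicle replicate 3 (adjusted p of 0.0255 to 0.106 over the fits that left out 1 library), and also without the low count filter (0.117), with only the 2 groups fitted (0.0709) and with the replicate block (0.0625).

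**Figure D2:**
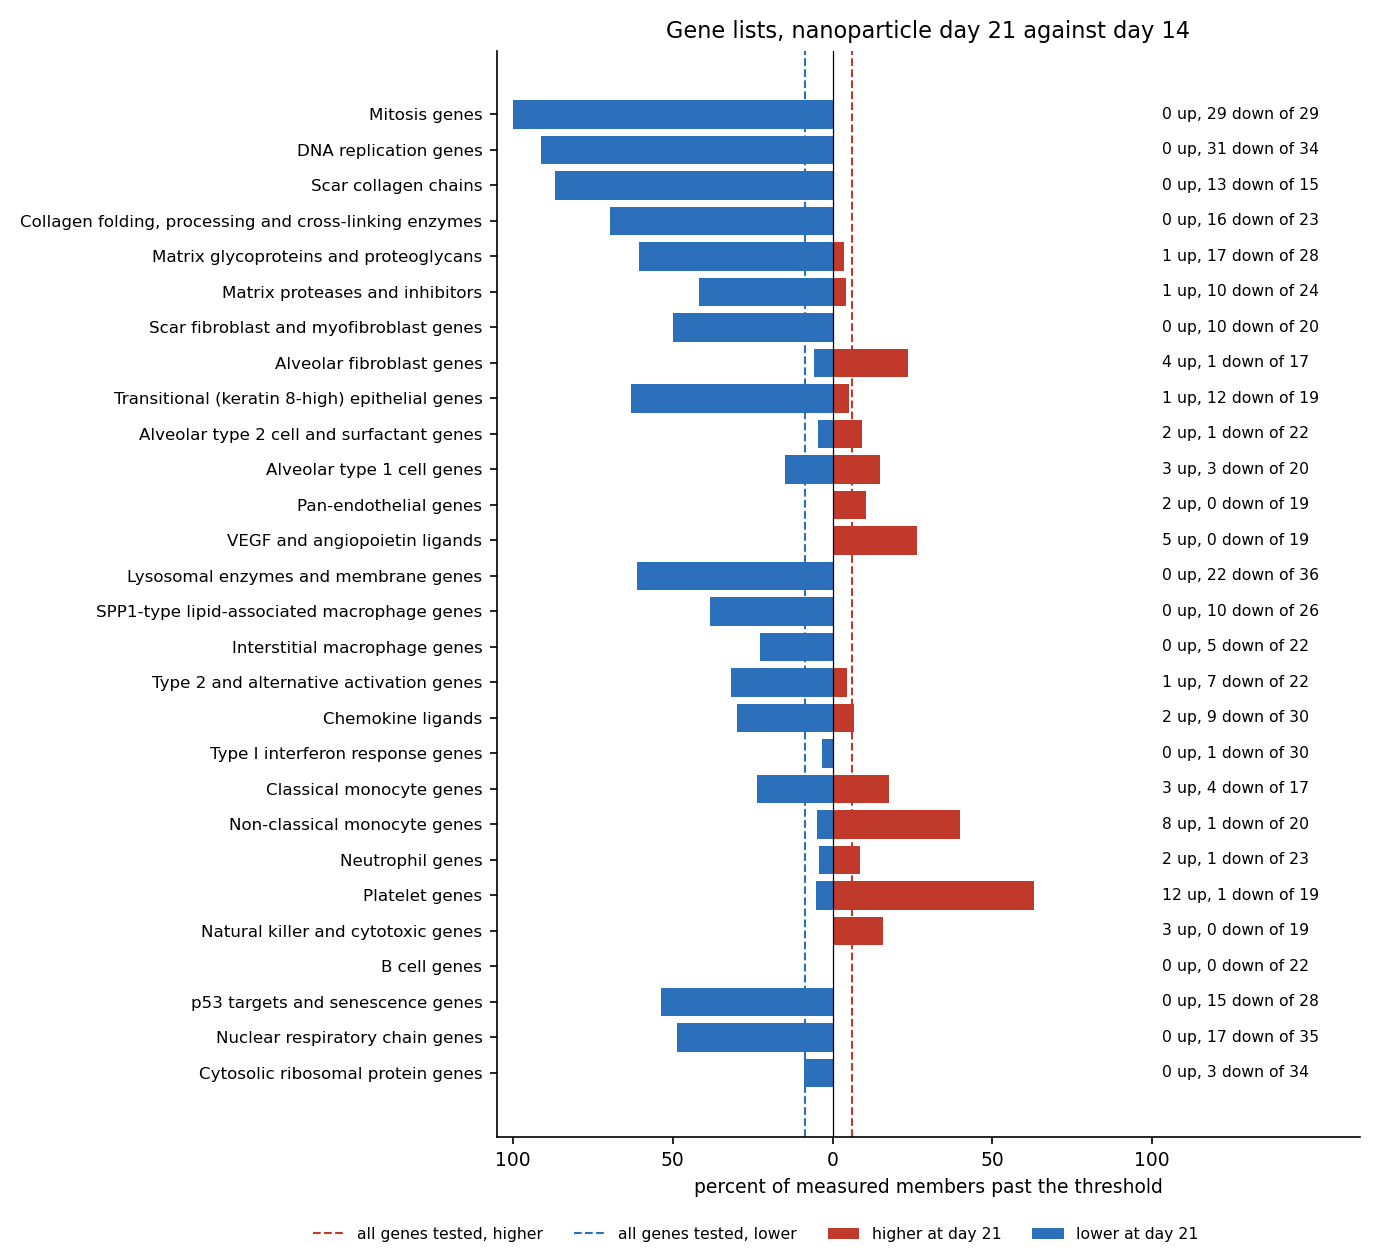
For 28 gene lists the bars give the percent of measured members past the threshold, higher (red, right) or lower (blue, left) after nanoparticles than at day 14, with the counts at the right. Dashed lines give the same percent over all genes tested, 6.16% higher and 8.56% lower, and mitosis genes fill the left side while platelet genes extend furthest to the right.

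The largest fall of the named genes was that of a macrophage gene. Retnla (chr16:48842551-48844461) encodes RELM-alpha, a secreted protein of alternatively activated macrophages that also comes from epithelium. It was at 208, 225, 271 and 163 CPM at day 14 and at 48.2, 43.2, 52.2 and 37.3 CPM after nanoparticles (log2 fold change -2.26 ± 0.18, edgeR adjusted p = 0.000262). Of 22 genes of type 2 responses and alternative activation, 7 fell (4 to 8) and 1 rose. Arg1, arginase 1, fell from 5.78 ± 1.94 to 2.26 ± 0.801 CPM (-1.35), and Ccl8, a chemokine of resident macrophages, from 7.45 ± 0.649 to 3.22 ± 0.734 CPM (-1.21). Mgl2, a lectin of interstitial macrophages and dendritic cells (chr11:70130329-70137550), fell from 30.2, 38.3, 36.1 and 32.2 CPM to 24.2, 23.8, 19.6 and 22 CPM (-0.61). Irf4, a transcription factor that macrophages share with plasma cells, was the gene that rose (0.45).

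Of 26 genes of lipid-associated macrophages marked by Spp1, 10 fell and none rose, a count that ran from 5 to 17 with 1 library left out. Spp1, osteopontin, was at 906, 1051.7, 1284.9 and 997 CPM at day 14 and at 597, 491, 537 and 276 CPM after nanoparticles, with no overlap (log2 fold change -1.16 ± 0.23, edgeR adjusted p = 0.00871). Trem2, the lipid receptor of these cells, was at 37.3 ± 2.03 and 26.3 ± 6.75 CPM (-0.50, adjusted p = 0.0654). Of 23 genes of alveolar macrophages 2 rose (Ear1 and Fabp1, 1 to 2) and 3 fell (Itgax, Plet1 and Ccl6, 0 to 6). These were shares of 8.7% and 13%, beside 6.16% and 8.56% over all genes. Plet1 lost its call in 11 of 22 alternatives, Itgax and Ccl6 in 5 of 22 each and Fabp1 in 5 of 21. Ear1, a ribonuclease of these cells, rose from 8.53 ± 2.01 to 15.2 ± 1.69 CPM (0.83), and their lectin Siglecf was at 15 ± 2.12 and 13.9 ± 3.10 CPM. Marco, a scavenger receptor that binds particles, was at 8.50, 10.7, 8.05 and 5.54 CPM at day 14 and at 3.27, 3.03, 11.7 and 2.5 CPM after nanoparticles. Its log2 fold change was -0.68 with replicate 3 (adjusted p = 0.317) and -1.47 without it (adjusted p = 0.00127). Of 28 scavenger and uptake receptors 5 fell (2 to 12) and 1, Cd36, which takes up oxidised lipid, rose by 0.42. Scarb1, a receptor for lipoproteins, fell by 0.45.

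Lysosomal genes fell in 22 of 36 cases and rose in none, with a small median of -0.31 (11 to 25 falling with 1 library left out). Ctss, a cathepsin of antigen-presenting cells, was at 829, 751, 866 and 815 CPM at day 14 and at 602, 537, 567 and 445 CPM after nanoparticles (log2 fold change -0.60 ± 0.12). Ctsd, the main aspartic protease of lysosomes, fell from 2015.5 ± 119 to 1304.0 ± 267 CPM (-0.63), and Gusb, beta-glucuronidase, by 0.45. The letters CACGTG, the core of the element bound by the lysosomal regulator TFEB, were in 10 of 30 promoters of the list (33.3%), beside 7.24% of all genes' promoters.

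Chemokine ligands fell in 9 of 30 cases (6 to 10) and rose in 2, Ppbp and Cx3cl1. Cxcl10, an interferon-induced attractant of T cells, was at 6.73, 7.58, 7.01 and 5.90 CPM at day 14 and at 5.27, 3.41, 3.09 and 2.90 CPM after nanoparticles (log2 fold change -0.89 ± 0.18, edgeR adjusted p = 0.00579). Ccl12, an attractant of monocytes, fell from 2.55 ± 0.561 to 1.22 ± 0.414 CPM (-1.07), and Cxcl13, which attracts B cells, from 3.99 ± 0.382 to 2.5 ± 0.0827 CPM (-0.68). Ccl2, the main ligand of CCR2, was at 1.44 to 3.58 and 1.3 to 1.80 CPM (-0.65, adjusted p = 0.119). Of 30 type I interferon response genes 1, Ifi27, fell (0 to 3) and none rose (0 to 2), and the median was 0.04. Isg15, a ubiquitin-like protein of that response, was at 21.1 CPM in nanoparticle replicate 1 and at 10.9 to 11.4 CPM in the other 3, beside 15.6 to 20.7 CPM at day 14. Of 24 inflammatory cytokine genes 2 fell (Il11 and Lcn2, 0 to 2), a share of 8.33% that was near the 8.56% over all genes. Il11 lost its call in 13 of 21 alternatives and Lcn2 in 7 of 22. Of 17 genes of MHC class II presentation 3 fell (17.6%), Ctss, Ifi30 and Lgmn, which are lysosomal enzymes. None of either list rose.

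**Figure D3:**
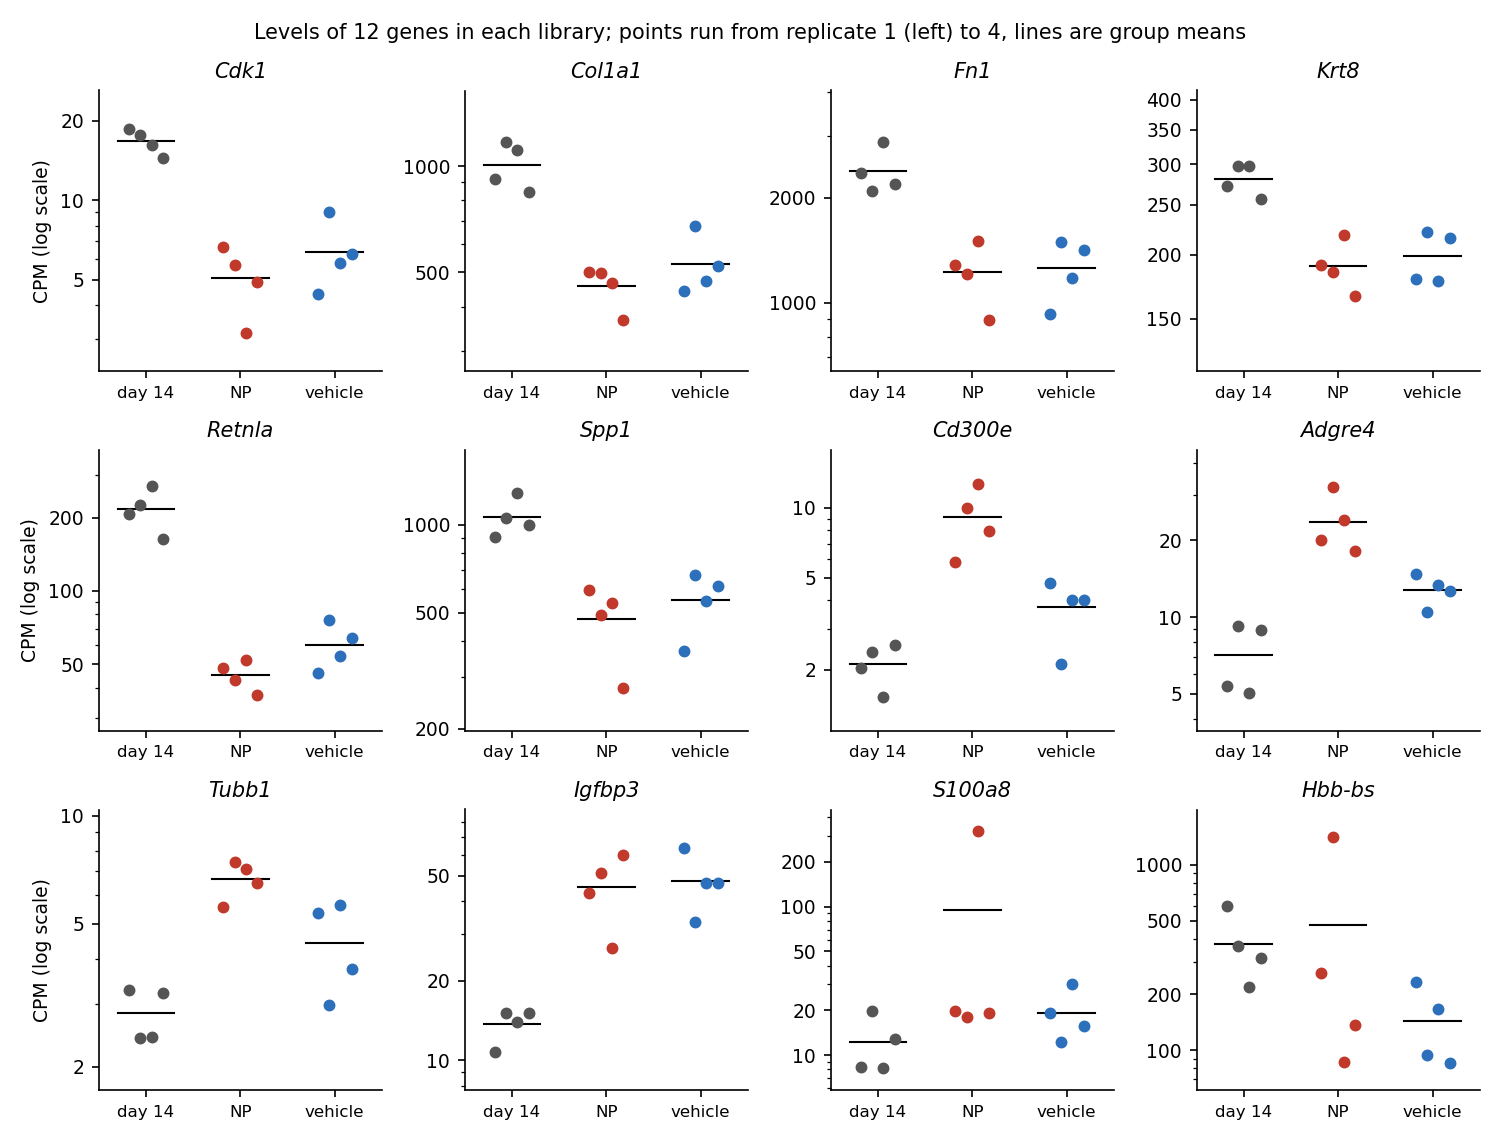
Each panel gives 1 gene in CPM on a log axis, with 1 point per library and a line at the group mean, for day 14, nanoparticle (NP) and vehicle lungs. Cdk1, Col1a1, Fn1, Krt8, Retnla and Spp1 were lower in all 4 nanoparticle libraries than in any day 14 library, Cd300e, Adgre4, Tubb1 and Igfbp3 were higher, and S100a8 and Hbb-bs were each set by 1 nanoparticle library, at 322 and 1423.9 CPM.

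Genes of platelets and of non-classical monocytes rose. Among the 12 genes with the largest rises by the same rule, Cd300e, Adgre4 and Treml4 are on the list of non-classical monocytes, the patrolling monocytes of the vessel wall, and Ppbp is on the platelet list. Of 20 non-classical monocyte genes 8 rose and 1 fell, with a median of 0.52 and 5 to 9 rising when 1 library was left out. Without nanoparticle replicate 3 the median was 0.19 and 7 genes rose. Vehicle lungs had a median of -0.03 from day 14 for this list, and in edgeR no gene of it was called between nanoparticle and vehicle lungs. DESeq2 called Cd300e, Itgal and Treml4 of this list (adjusted p = 0.00422 each) and Adgre4 (adjusted p = 0.0349) as higher than in vehicle lungs.

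Cd300e (chr11:115051917-115062177), an activating receptor of monocytes, was at 2.04, 2.38, 1.53 and 2.57 CPM at day 14 and at 5.82, 9.97, 12.7 and 7.97 CPM after nanoparticles (log2 fold change 2.09 ± 0.28, edgeR adjusted p = 0.000875). The lowest nanoparticle library was above the highest day 14 library, and vehicle lungs were at 4.76, 2.11, 3.99 and 4.01 CPM. Adgre4 (chr17:55749984-55853662), an adhesion receptor of mature monocytes, was at 5.37, 9.24, 5.03 and 8.91 CPM at day 14, at 20.04, 32.2, 24 and 18.2 CPM after nanoparticles (1.73 ± 0.23) and at 10.5 to 14.8 CPM after vehicle. Treml4 (chr17:48264295-48275360), an innate receptor of the same cells, rose from 4.40 ± 1.62 to 11.8 ± 2.38 CPM (1.43). S1pr5 (chr9:21242912-21248443), the sphingosine receptor with which patrolling monocytes and natural killer cells leave the marrow, was at 2.04, 3.54, 2.35 and 3.19 CPM at day 14 and at 7.26, 8.64, 8.28 and 7.28 CPM after nanoparticles (1.51 ± 0.19, adjusted p = 0.00055). Itgal (chr7:127296260-127335138), the LFA-1 integrin chain that also serves lymphocytes, rose from 70.5 ± 3.10 to 110 ± 17.6 CPM (0.64), and Spn, CD43, rose from 29.4 ± 5.6 to 48.8 ± 8.34 CPM (0.73). The gene that fell was Nxpe5 (-0.81). Nr4a1 and Ace gave no call: Nr4a1, their transcription factor and an immediate early gene, was at 26.6 to 187 and 32.0 to 94.8 CPM, and Ace, also made by capillary endothelium, was at 1214.7 ± 91.7 and 1217.5 ± 180 CPM.

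Classical monocyte genes split. Of 17, 3 rose (Ly6c2 and Ms4a4c among them, 2 to 4) and 4 fell (Fn1, Vcan, S100a4 and Ccl9, 3 to 5). Ly6c2, the Ly6C antigen of monocytes fresh from the marrow, was at 11.3, 16.3, 10.7 and 11.8 CPM at day 14 and at 29.4, 21.7, 24.8 and 17.2 CPM after nanoparticles (log2 fold change 0.90 ± 0.16, edgeR adjusted p = 0.00378). Ccr2, the receptor with which these monocytes leave the marrow, was at 93.3 ± 18.6 and 112 ± 11.2 CPM (0.26, adjusted p = 0.20). Fn1 and Vcan (-0.84) encode matrix proteins that fibroblasts make as well.

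Platelet genes rose in 12 of 19 cases and fell in 1, with a median of 0.86 and 9 to 12 rising when 1 library was left out (10 without nanoparticle replicate 2 and 11 without replicate 3). Vehicle lungs had a median of 0.35 from day 14, and in edgeR no platelet gene was called between nanoparticle and vehicle lungs. Tubb1, the beta-tubulin of platelets, was at 3.28, 2.41, 2.42 and 3.22 CPM at day 14 and at 5.58, 7.44, 7.11 and 6.49 CPM after nanoparticles (log2 fold change 1.22 ± 0.20, edgeR adjusted p = 0.00197). Ppbp (chr5:90768518-90770063), the platelet basic chemokine, was at 3.69, 5.88, 3.73 and 6.92 CPM and then at 9.64, 14.4, 18.5 and 14.6 CPM (1.51 ± 0.30). Gp5, of the receptor for von Willebrand factor, rose from 1.02 ± 0.168 to 2.15 ± 0.416 CPM (1.06). Pf4, platelet factor 4, which tissue macrophages also express, was at 5.70 ± 0.491 and 6.65 ± 1.17 CPM (0.23, adjusted p = 0.259). F5, coagulation factor V (chr1:164151838-164220277), which is on no platelet list here, rose from 2.18, 2.30, 2.01 and 3.44 CPM to 5.23, 6.65, 7.70 and 5.47 CPM (1.34). The gene that fell was Thbs1, thrombospondin 1, which fibroblasts and macrophages make too. It fell by 0.89, with an adjusted p of 0.0153 that was lost without the low count filter, and it made up much of the list's summed level, 1110.6 to 1429.6 CPM at day 14 and 883 to 1060.1 CPM after nanoparticles.

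Other blood cell lists were widely spread within the nanoparticle group. Red cell genes gave no call among 14 measured, and Alas2, which starts haem synthesis in red cell precursors, was at 6.15 to 17.4 CPM at day 14 and at 8.16, 46.3, 2.62 and 4.78 CPM after nanoparticles. The library highest in these genes was nanoparticle replicate 2 and the lowest was replicate 3. How much blood each lung held was not tested here. The median of neutrophil genes was 1.73 with all libraries and 0.43 without nanoparticle replicate 3. With all libraries 2 of 23 rose (Mpo and Acod1) and 1 fell (Lcn2), and 1 rose and 4 fell without nanoparticle replicate 3. With all libraries the shares were 8.7% and 4.35%, beside 6.16% and 8.56% over all genes. Mpo was at 4.65 CPM in nanoparticle replicate 3 and at 1.04 to 1.62 CPM in the rest of its group, and it lost its call in 14 of 22 alternatives. S100a9 was at 8.79, 24.4, 9.99 and 18.4 CPM at day 14 and at 31.7, 30.3, 411 and 29.9 CPM after nanoparticles (log2 fold change 3.04 ± 0.98, edgeR adjusted p = 0.0665). Csf3r, the receptor for granulocyte colony-stimulating factor, was at 9.54 to 19.0 CPM at day 14, and each nanoparticle library lay above that range, at 22.1, 28.5, 102 and 22.8 CPM (1.75, adjusted p = 0.0664).

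Replicate 3 also set the size of 3 of the 12 largest rises. Slfn4 (chr11:83175186-83190216), a Schlafen gene of myeloid cells, was at 2.16 to 3.96 CPM at day 14 and at 11.8, 6.19, 50.6 and 5.36 CPM after nanoparticles. Its log2 fold change was 2.73 with replicate 3 and 1.49 without it. The call (adjusted p = 0.0416) was lost without any 1 of the 4 day 14 libraries, nanoparticle replicate 1, vehicle replicate 1 or vehicle replicate 2 (0.0325 to 0.111 over the fits that left out 1 library). Ifitm6 (chr7:141015699-141017924), an interferon-induced membrane gene of myeloid cells, was at 4.92, 6.19, 29.6 and 3.77 CPM after nanoparticles (2.61, and 1.45 without replicate 3). Trim30b (chr7:104355382-104369884), of the TRIM family, was at 7.47, 6.90, 15.8 and 6.09 CPM (1.37, and 0.97 without replicate 3). For both genes the call was lost without day 14 replicate 1 or 3, at adjusted p up to 0.079 and 0.0578, and without the low count filter (0.0654 and 0.0631). Ifitm6 also lost it with limma-voom (0.0674), with the replicate block (0.0602) and with only the 2 groups fitted (0.0811). Slfn4 lost it with limma-voom (0.121), on log2(TPM + 1) (0.0725), without the low count filter (0.089) and with only the 2 groups fitted (0.0915).

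Natural killer and B cell genes gave few calls with all libraries and more without replicate 3. Of 19 natural killer and cytotoxic genes 3 rose (Prf1, Gzmb and Eomes, 0 to 11), and 11 rose without nanoparticle replicate 3. Ncr1, the receptor NKp46 of natural killer cells, was at 1.87, 4.07, 3.17 and 3.30 CPM at day 14 and at 4.61, 7.69, 3.16 and 6.92 CPM after nanoparticles (log2 fold change 0.87, edgeR adjusted p = 0.0555). Of 22 B cell genes none passed with all libraries and 8 rose without replicate 3. Cd79a, a part of the B cell receptor, was at 17.6 to 40.3 CPM at day 14 and at 22.6 to 54.3 CPM after nanoparticles (0.60, adjusted p = 0.231). T cell genes fell in 2 of 31 cases (Il2ra and Foxp3, 1 to 3) and rose in none, and the share that fell, 6.45%, was below the 8.56% over all genes. Immunoglobulin and T cell receptor segments rose in 12 of 101 cases, beside 6.16% of all genes, and fell in none. Without replicate 3 fewer segments rose, 8. Igkc, the kappa light chain, was at 48.7 to 57.4 CPM at day 14 and at 101, 90.8, 261 and 53.2 CPM after nanoparticles (1.22, adjusted p = 0.0836).

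**Figure D4:**
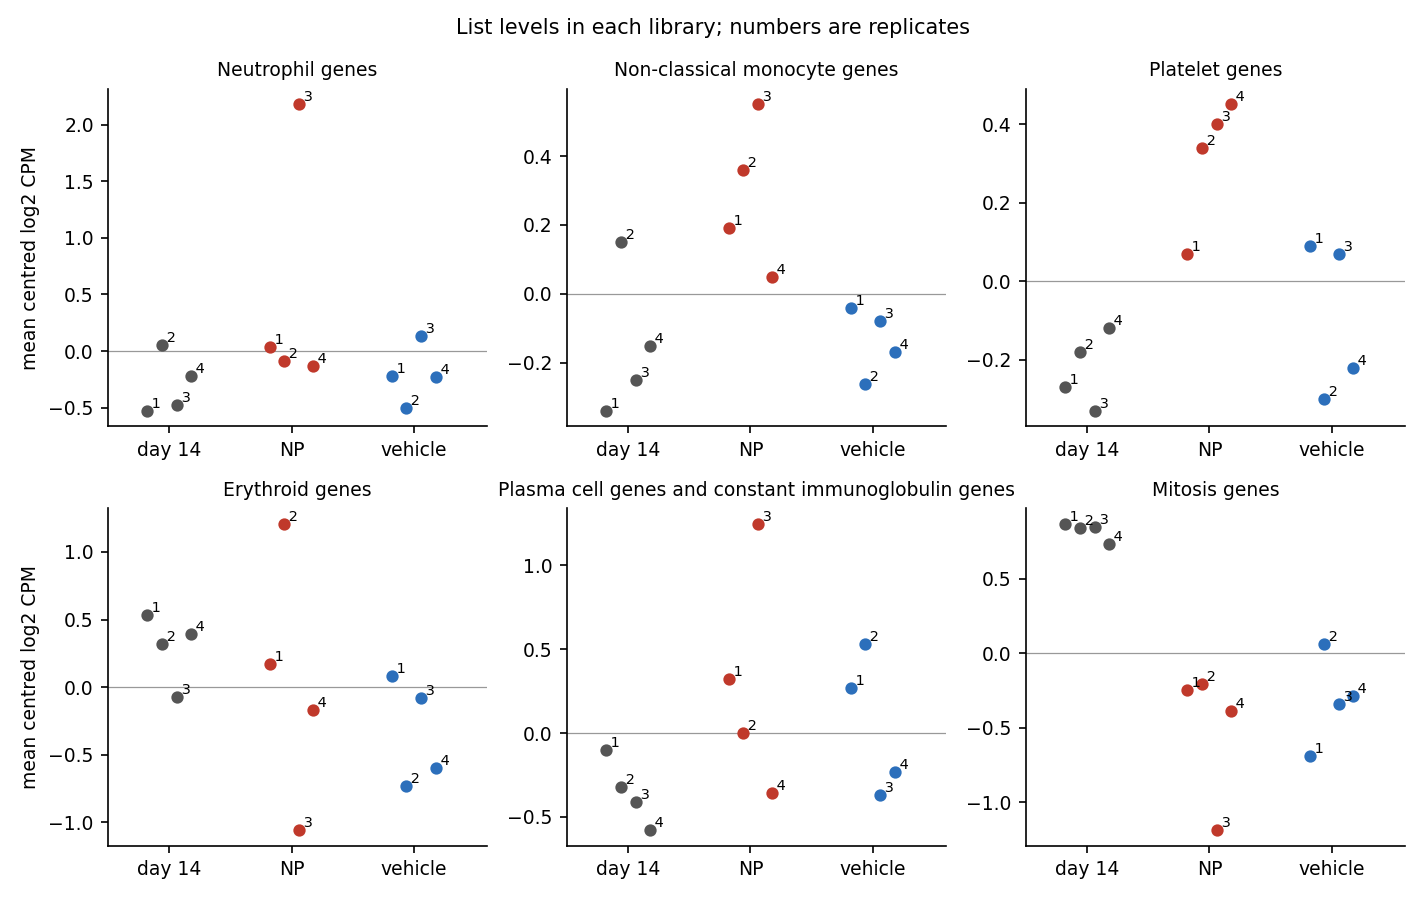
Each point is the mean, over the genes of a list, of log2 CPM centred on the 12 libraries, and the numbers are replicates of day 14, nanoparticle (NP) and vehicle lungs. All 4 nanoparticle libraries lie above day 14 for platelet genes and below it for mitosis genes, replicate 3 stands alone for neutrophil genes and replicate 2 is the highest for erythroid genes.

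Igfbp3, Cyp1a1 and Adra1a, on no blood cell list here, were also among the 12 largest rises. Igfbp3 (chr11:7206086-7213923), which binds insulin-like growth factors and is made by mesenchyme and endothelium, was at 10.8, 15.1, 14.0 and 15.1 CPM at day 14 and at 42.8, 51.1, 26.7 and 59.9 CPM after nanoparticles (log2 fold change 1.72 ± 0.26, edgeR adjusted p = 0.00237). Igf1, the growth factor, moved the other way, from 104 ± 9.26 to 61.6 ± 11.0 CPM (-0.75). Cyp1a1 (chr9:57687928-57703824), the classic target of the aryl hydrocarbon receptor, was at 1.32 to 2.53 CPM at day 14 and at 7.40, 6.85, 4.77 and 15.2 CPM after nanoparticles (2.18 ± 0.48, adjusted p = 0.0133), and Cyp1b1, of the same family, rose by 0.39. Adra1a (chr14:66635251-66771168), the alpha-1A adrenergic receptor, was at 4.40 to 5.77 CPM and then at 9.78 to 14.4 CPM (1.25 ± 0.13, adjusted p = 0.000375). After vehicle the means were 47.6 CPM for Igfbp3, 8.0 CPM for Cyp1a1 and 10.3 CPM for Adra1a. The intervals of the nanoparticle minus vehicle difference ran from -0.61 to 0.45 for Igfbp3, from -0.84 to 1.04 for Cyp1a1 and from -0.08 to 0.45 for Adra1a.

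In the pan-endothelial list and the VEGF and angiopoietin list no gene fell, whereas 1 gene fell in each of 2 other vessel lists. Of 25 lung capillary subtype genes 2 rose and 1 fell (8% and 4%). Of 21 artery, vein and lymphatic genes 3 rose and 1 fell (14.3% and 4.76%), beside 6.16% and 8.56% over all genes. Of 19 pan-endothelial genes 2 rose (Tek and Tmem100, 0 to 7) and none fell, a share of 10.5% beside 6.16% over all genes, and Pecam1, CD31, was at 662 ± 32.9 and 744 ± 82.6 CPM (0.17, edgeR adjusted p = 0.198). Of 19 genes of VEGF and angiopoietin signalling 5 rose (Angpt1, Angpt2, Tek, Vegfa and Esm1, 26.3%) and none fell, a count that ran from 1 to 8 with 1 library left out. Angpt1, which steadies vessels through the receptor TIE2, was at 71.2, 67.5, 71.4 and 78.4 CPM at day 14 and at 89.5, 98.7, 91.3 and 107 CPM after nanoparticles (0.42 ± 0.07, adjusted p = 0.00262). Bmp6, a bone morphogenetic protein of endothelium, was at 91.9 to 113 CPM at day 14 and at 154 to 188 CPM after nanoparticles (0.77 ± 0.11), and Wnt5a, a ligand of non-canonical Wnt signalling, fell by 0.47.

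Respiratory chain genes of the nucleus fell by small amounts, 17 of 35 with a median of -0.17 and 5 to 19 with 1 library left out. Cox5a, a subunit of complex IV, fell from 52.2 ± 4.01 to 39.9 ± 2.78 CPM (log2 fold change -0.39) and Ndufa1, of complex I, from 26.9 ± 3.18 to 19.8 ± 1.49 CPM (-0.45). Of 13 genes encoded in the mitochondrion 4 rose (mt-Nd2, mt-Nd4, mt-Nd5 and mt-Cytb, 2 to 6) and none fell. mt-Nd2, a complex I subunit, rose from 1175.8 ± 69.3 to 1509.8 ± 80.3 CPM (0.36). Cytosolic ribosomal protein genes fell in 3 of 34 cases (Rpl15, Rpl24 and Rps2, 1 to 9) and rose in none, and the share that fell, 8.82%, was near the 8.56% over all genes.

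Against vehicle lungs at day 21 no gene passed the threshold. In edgeR 0 of 17909 genes (0%) were called between nanoparticle and vehicle lungs, the smallest adjusted p was 0.451, and 762 genes (4.25%) had an unadjusted p under 0.05. DESeq2 called 18 genes, 16 higher and 2 lower after nanoparticles. Over the same table the vehicle course called 1845 genes (10.3%) against day 14. The nanoparticle and vehicle courses share the day 14 libraries, so the called genes of one and the other are not set against each other here.

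The 5 genes of smallest p that were higher after nanoparticles than after vehicle were Samsn1, Was, Itgal, Acod1 and Ms4a6c, and the 5 that were lower included Mgl2, Il1rl1, Dmpk and Ppp1r35. Samsn1 (chr16:75858793-76022281), a haematopoietic adaptor protein, was at 13.9, 18.7, 16.5 and 13.8 CPM after nanoparticles and at 10.3, 10.7, 10.9 and 9.82 CPM after vehicle, with a difference of 0.59 (95% confidence interval 0.36 to 0.82, edgeR adjusted p = 0.451). Itgal differed by 0.53 (0.32 to 0.75), Was, the actin regulator of blood cells (chrX:8081453-8090498), by 0.39 (0.23 to 0.55) and Cd300e by 1.29 (0.73 to 1.85), each with the same adjusted p. Acod1 (chr14:103046977-103056573), which makes itaconate in activated macrophages, was at 0.792, 0.831, 1.91 and 0.435 CPM after nanoparticles and at 0.0352 to 0.213 CPM after vehicle. The difference was 2.67 (1.55 to 3.78, edgeR adjusted p = 0.451). These levels are near the floor, and vehicle replicate 1, at 0.0352 CPM, was below the 0.106 CPM that 3 counts were worth in that library. Ms4a6c, a membrane protein of monocytes (chr19:11469366-11482192), was at 30.5 ± 3.28 and 22.5 ± 2.13 CPM. Mmp12 was at 56.6, 76.3, 93.0 and 87.7 CPM after vehicle and differed by 0.65 (0.35 to 0.96, adjusted p = 0.557). Mgl2 was lower after nanoparticles, by 0.45 on the log2 scale, with vehicle lungs at 27.4 to 33.7 CPM (interval -0.65 to -0.26). Il1rl1, the receptor ST2 of interleukin 33 (chr1:40429570-40465415), was at 7.57 to 8.81 CPM after nanoparticles and at 10.3 to 11.8 CPM after vehicle (-0.42). The nanoparticle and vehicle libraries did not overlap for Samsn1, Itgal, Was, Cd300e, Acod1, Ms4a6c, Mmp12, Mgl2 and Il1rl1, and in DESeq2 each of these passed an adjusted p of 0.05. The libraries did not overlap for Dmpk and Ppp1r35 either, but DESeq2 did not call these genes (adjusted p = 0.168 and 0.249). Most of these genes were named for their small p in this same comparison, so neither point is further support. The share of all genes whose nanoparticle and vehicle libraries did not overlap is not given here.

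For the matrix, transitional epithelial and macrophage genes given next, the estimated nanoparticle minus vehicle difference was smaller than the fall from day 14. It was -0.21 for Col1a1 (95% confidence interval -0.52 to 0.10), -0.04 for Fn1 (-0.41 to 0.33), -0.06 for Krt8 (-0.26 to 0.14), -0.21 for Spp1 (-0.72 to 0.30) and -0.41 for Retnla (-0.79 to -0.03, unadjusted p = 0.0381, edgeR adjusted p = 0.999). Over the lists the median difference was -0.17 for mitosis genes, 0.48 for non-classical monocyte genes and 0.53 for platelet genes, beside 0.002 over all genes. Without nanoparticle replicate 3 these were 0.0093, 0.35 and 0.47, so the sign for mitosis genes rested on that library. For single platelet genes it was 0.98 for Ppbp (0.34 to 1.61, edgeR adjusted p = 0.902) and 0.58 for Tubb1 (0.17 to 0.99, edgeR adjusted p = 0.948). For Adgre4 the difference was 0.88 (0.41 to 1.36, edgeR adjusted p = 0.875, DESeq2 adjusted p = 0.0349).

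**Figure D5:**
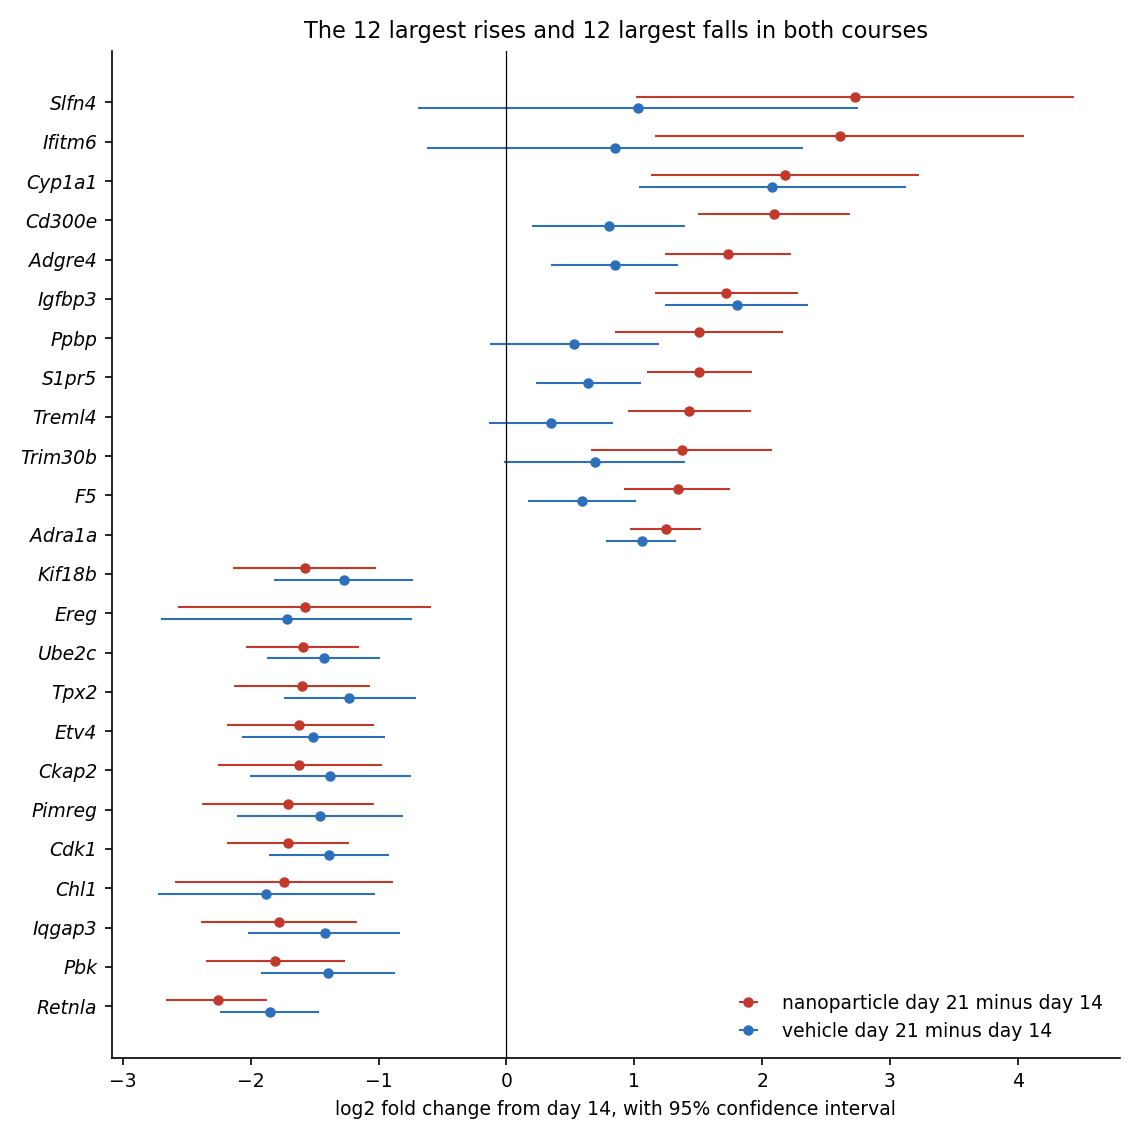
Points give the log2 fold change from day 14 of the 12 largest rises and 12 largest falls after nanoparticles (red) with the same genes after vehicle (blue), and bars are 95% confidence intervals. Igfbp3 and Cyp1a1 lie close together in both courses, and the division genes fell in both, with Pbk at -1.81 and -1.40. Slfn4 (2.73 and 1.03), Ifitm6 (2.61 and 0.85) and Cd300e (2.09 and 0.80) are further from day 14 after nanoparticles. For Slfn4 and Ifitm6 nanoparticle replicate 3 set the size of the rise.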

How the data were processed

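RNA of whole lungs (all lobes without trachea and large airway) was made into polyA libraries and sequenced from both ends, per the labels' protocols. Per the submitters' processing notes the build was GRCm38 and the tools included STAR 2.7.8a, RSEM 1.3.3, cutadapt 4.8, MultiQC 1.20 and FastQC 0.11.8. For the strand setting and annotation release, nothing is given in the sources used here. The authors deposited expected counts per gene, which share reads among similar genes by estimate, and TPM per gene, which are scaled to a fixed sum. Genes that share sequence or overlap are therefore less certain. All columns were matched to a sample by their labels.

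Expected counts were rounded to whole numbers and tested in R 4.3.3 with edgeR 4.0.16 (quasi-likelihood, robust, TMM scaling, filterByExpr with a minimum count of 10 and total of 15) in 1 fit of the 12 libraries, 4 in each of 3 groups, with two-sided contrasts and Benjamini-Hochberg adjustment over 17909 of 55487 genes. The common biological coefficient of variation was 0.119. Levels in the text are TMM-scaled CPM with the SD over mice. CPM is not scaled by gene length, so levels are compared within a gene only. Of the genes left out, 21732 had no count. Within groups, no pair of libraries was alike to within sampling noise (chi-square per degree of freedom 5.57 to 21.4). The script was tested on simulated data.

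Alternatives were DESeq2 1.42.0, limma 3.58.1 (voom, and trend on log2 of the deposited TPM with a pseudocount of 1 or 0.1), other scalings and filters, only the groups compared, a replicate block, and leaving out each library.

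Members and gene lists were chosen with earlier results of these data known, and list counts are descriptions without a set test. The genes named were the 12 largest rises and 12 largest falls with an adjusted p under 0.05, an average log2 CPM of at least 1 and groups that did not overlap, the 5 genes of smallest p, defining members of the lists with up to 3 called members per direction, and the 5 genes of smallest p in each direction against vehicle. Where a list had few calls the further called members were named after their values were seen. The rule skips predicted genes, clones and pseudogenes, and segments of immunoglobulins and T cell receptors are given as counts alone. Gene coordinates are from GENCODE M21 on GRCm38 and promoters from RefSeq on GRCm38.p6. A few genes that the rule names are not reported here.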

Additional observations from a re-analysis of the deposited data

Results flagged for a closer look

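In 37 of 504 groups of 4 libraries (7.34%), counted over the genes named above and the 3 groups, 1 library lay so far from the other 3 that its gap exceeded Dixon's 95% critical value. Chance flags about 1 in 20 groups, and the genes were not chosen independently. In 15 of the 37 the library was nanoparticle replicate 3, and no other library was flagged for more than 5 genes.

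Nanoparticle replicate 3 was the highest of its group for genes of neutrophils and other myeloid cells: S100a8 at 322 CPM, S100a9 at 411, Csf3r at 102, Slfn4 at 50.6, Ifitm6 at 29.6, Trim30b at 15.8, Marco at 11.7 and Mpo at 4.65 CPM. It was also the highest for Scarb1 at 189 CPM, Cthrc1 at 6.52, Etv4 at 1.91 and Ppp1r35 at 8.20 CPM. The division genes for which it was flagged as the lowest of its group were 3, Ckap2 at 1.72 CPM, Tpx2 at 3.24 CPM and Ube2c at 2.23 CPM. For other division genes, such as Cdk1 at 3.16 CPM, it was the lowest without being flagged.

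Nanoparticle replicate 2 was the highest for the red cell genes Hbb-bs, at 1423.9 CPM, and Alas2, at 46.3 CPM. Nanoparticle replicate 1 was the highest for Isg15, at 21.1 CPM, and for Thbs1, at 446 CPM beside 241 to 272 CPM. Nanoparticle replicate 4 was the highest for Cav2, at 482 CPM, and the lowest for Itgax, at 102 CPM, and Krt7, at 317 CPM.

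At day 14, replicate 2 was the highest for Dmpk, at 58.7 CPM, and the lowest for Limch1, at 521 CPM, and Cyp1b1, at 8.71 CPM. Day 14 replicate 4 was the lowest for H2ax, at 21.6 CPM, and Krt7, at 428 CPM, and replicate 3 was the highest for Igfbp2, at 362 CPM.

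Among vehicle lungs, replicate 2 was the highest for Dmpk, at 54.9 CPM, and Ltbp3, at 300.4 CPM, and the lowest for Tek, at 287 CPM, Prf1, at 5.33 CPM, and Ifitm6, at 2.92 CPM. Vehicle replicate 1 was the highest for Nr4a1, at 72.1 CPM beside 21.3 to 25.8 CPM, and the lowest for Isg15, at 11.3 CPM. Vehicle replicate 4 was the highest for Tgfb1, at 82.5 CPM, and mt-Nd4, at 2853.5 CPM.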

How the results depend on the processing

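The 2636 genes that differed between nanoparticle and day 14 lungs became 1577 with limma on log2(TPM + 0.1), 1607 on log2(TPM + 1), 1672 when only the 2 groups compared were fitted and 1363 to 2934 with 1 library left out. The 1103 that rose became 604, 607, 702 and 495 to 1358, and the 1533 that fell became 973, 1000, 970 and 837 to 1594. The 0 genes that differed between nanoparticle and vehicle lungs became 18 with DESeq2, and stayed at 0 with 1 library left out (0 to 0) and in the other settings run. The 1845 of the vehicle course became 995 and 1051 on the TPM scales and 719 to 2162 with 1 library left out. The other settings (DESeq2, limma-voom, no low count filter, at least 1 CPM in 4 libraries, DESeq2's size factors, upper-quartile scaling) moved the count of nanoparticle against day 14 by less than 1.5 times, to between 1980 and 3385. The share of called genes that rose was 41.8% and went to 45.5% with DESeq2's size factors. The cause of these shifts was not tested.

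Mouse numbers are shared by the groups, but same-numbered day 14 and nanoparticle libraries did not deviate together (correlations from -0.0557 to 0.0952, with 1 of the 4 correlating best with its own number). With the replicate block the counts were 2419 for nanoparticle against day 14, 1673 for vehicle against day 14 and 0 for nanoparticle against vehicle.

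Of the genes named, 138 were called, 97 of these in each alternative that tested them (22, or 21 for Acod1), and none reversed. The other 41 lost the call in at least 1 alternative: 32 without day 14 replicate 3, 31 without day 14 replicate 1, 32 without nanoparticle replicate 4, 28 without nanoparticle replicate 2 and 5 without nanoparticle replicate 3. Of the 30 genes not called, 9 were called in at least 1. A gene at 3 counts or fewer in a library, 0.0719 to 0.125 CPM, cannot be told from 0 there.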
